A study of Homo sapiens with 40 samples.

Results

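The soluble nuclear extract (SNE) and the cytoplasmic extract (CE) of undifferentiated human embryonic stem cells were compared by total RNA sequencing. SNE and CE each had 2 libraries on day 0, which makes 4 of the 36 total RNA libraries and 40 samples in the series. Of 57939 genes in the table, 19748 had a value of at least 1 TPM in at least 2 of the 4 libraries and were tested. The cells were wild-type H1, an established embryonic stem cell line, grown on matrigel in mTeSR1, and day 0 is the state before a mesoderm protocol with BMP4 and then bFGF was begun. Extracts of the same kind from days 3 and 5 of that protocol (2 libraries per extract and day), and a separate polyA-selected pair of nucleus and cytoplasm from day 0 (2 libraries each), were used for comparison. All groups share the one cell line, with no genetic change. A commercial protein fractionation kit separated the cells in steps into CE, a membrane extract (ME), SNE, a chromatin-bound nuclear extract and a cytoskeletal pellet, and INPUT libraries came from unfractionated cells. Nothing in the labels says that libraries of one group came from separate cultures, so p-values measure only the spread between these libraries, which may be technical.

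A transcript leaves the nucleus after it has been capped, spliced and polyadenylated, and until then its introns are still attached or lie nearby as excised pieces. Many long noncoding RNAs stay in the nucleus, on chromatin or in nuclear bodies, while mRNAs of housekeeping proteins collect on ribosomes in the cytosol and those of secreted or membrane proteins on the endoplasmic reticulum. In a stepwise extraction with detergents, mild detergent releases the cytosol, a stronger one the organelle membranes, and later steps the contents of the nuclei. In embryonic stem cells the mRNAs of the pluripotency factors turn over quickly, and primate-specific long noncoding RNAs are abundant.

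The deposited TPM values counted reads over whole genes, introns included. Multiplied by the genomic span of the gene in GENCODE 29, between 98.4% and 98.6% of low values were whole numbers of reads within 0.05 of a read, against 9.48% to 10.1% when multiplied by exon length. A TPM value here is therefore reads per base of gene span, scaled to a fixed total per library, and a gene with long introns holds unspliced as well as spliced RNA in the same number. This count gave 28535284 and 24505225 reads in the SNE libraries, against 18392447 and 21898642 reads in the CE libraries. Reads in overlapping genes of one strand were mostly not assigned: 8298 of 8333 genes lying wholly inside another gene on the same strand were listed at 0 in all 4 libraries, against 62.5% of genes inside a gene of the opposite strand only and 49.9% of genes with no overlap. Among them were SOX2, which lies inside SOX2-OT, and the MIR302 hairpins. The 2 libraries of an extract correlated across genes with r = 0.957 in SNE and 0.976 in CE on the log2(TPM + 1) scale.

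Of the 19748 genes, 7977 were higher in SNE than in CE (40.4%) and 2595 were lower (13.1%) by limma with an adjusted p under 0.05 and a log2 difference of at least 1. In every one of these genes the 2 SNE libraries lay on one side of the 2 CE libraries. The direction of a small difference depended on the scaling. The median gene stood at 0.77 as deposited, at 1.03 with mitochondrial genes removed, at 0.10 after quantile normalisation, at -0.09 with a common median and at -0.23 with equal counted reads. The 6 ways of scaling the libraries that were compared include removal of mitochondrial and other structured RNA genes, with a median of 1.04. With a common median 16.3% of genes were higher and 25.7% lower, and with equal counted reads 13.5% were higher and 30.1% lower. Under all 6 scalings, or all of them that kept the gene, 2437 genes were higher in SNE (12.3%) and 1976 were lower (10.0%). Differences of this kind are called stable below. Mitochondrial genes are removed in 2 of the 6 scalings, and snRNA and other structured RNA genes in 1, so these were judged under the rest. Of the called genes, 7219 of the higher ones and 2372 of the lower ones had at least 20 reads over the 2 libraries together of the extract in which they were higher.

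Nuclear markers were higher in SNE and cytosolic markers lower, while mitochondrial RNA was higher in SNE than in CE. MALAT1, a long noncoding RNA of nuclear speckles, had 9431 and 9723 TPM in SNE, against 2185 and 2176 TPM in CE. Its log2 difference was 2.13 ± 0.03 (SE, adjusted p = 9.52e-05) and remained 0.89, below the threshold, with equal counted reads. NEAT1, the scaffold of paraspeckles, had 174 and 176 TPM in SNE and 32.0 and 34.2 TPM in CE, a stable difference of 2.37 ± 0.04. GAPDH, a glycolytic enzyme of the cytosol, had 889 and 875 TPM in SNE, against 6858 and 6725 TPM in CE. This was the reverse pattern, at -2.94 ± 0.03 and stable. RPLP0, of the large ribosomal subunit, stood at 989 and 1007 TPM in SNE and at 3580 and 3408 TPM in CE. The endoplasmic reticulum markers were also lower in SNE, with 367 and 337 TPM against 1078 and 1057 TPM in CE for HSPA5, the lumenal chaperone BiP, and with 22.8 and 22.9 TPM against 91.3 and 91.9 TPM for SEC61B of the translocon. Mitochondrial transcripts were higher in SNE than in CE: MT-CO1, a cytochrome oxidase subunit, had 37635 and 36744 TPM in SNE and 2774 and 2501 TPM in CE. Its level was 33173 and 32436 TPM in INPUT, near that of SNE, and 86489 and 86150 TPM in ME.

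**Figure D1:**
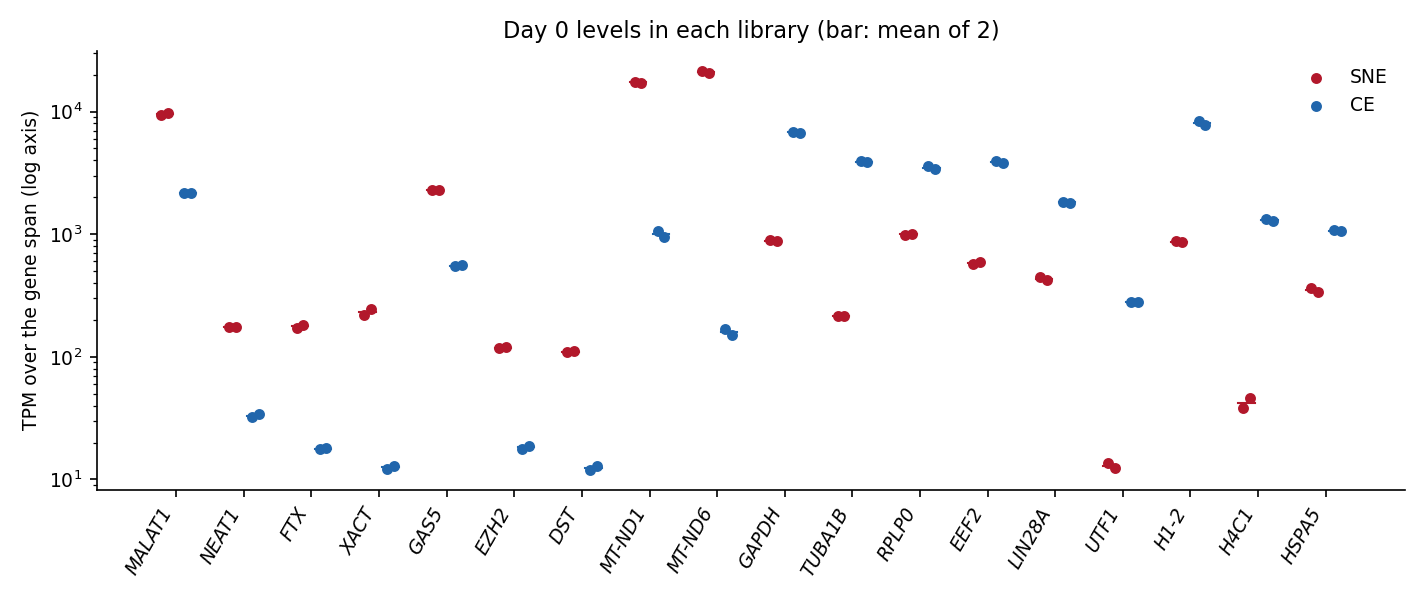
TPM over the gene span (log axis) of 18 genes in each day 0 library, SNE in red left of CE in blue, with a bar at the mean of 2. MALAT1, the other long noncoding RNAs, EZH2, DST and the mitochondrial genes lie higher in SNE, and GAPDH, tubulin, translation, stem cell factor and histone genes lie higher in CE, with no overlap between extracts.

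Both extracts carried the embryonic stem cell markers, at different levels. POU5F1, the core pluripotency factor, had 13.9 and 11.6 TPM in SNE, against 132 and 127 TPM in CE, although 25.4% of its annotated span is shared with another gene on the same strand. LIN28A, which blocks let-7 processing in the cytoplasm, had 444 and 420 TPM in SNE and 1822 and 1808 TPM in CE. NANOG, a homeobox factor of pluripotency, had 96.9 and 101 TPM in SNE and 299 and 318 TPM in CE. All 3 were lower in SNE under every scaling. DNMT3B, the de novo DNA methyltransferase, was not called, with 1393 and 1442 TPM in SNE and 876 and 873 TPM in CE, and its sign turned, to -0.55, with equal counted reads. L1TD1, an RNA-binding protein derived from a LINE-1 element, had 1260 and 1249 TPM in SNE and 876 and 850 TPM in CE and likewise turned, to -0.70. TDGF1, the co-receptor Cripto, had 298 and 306 TPM in SNE and 496 and 490 TPM in CE, a difference of -0.70. Among the 7 markers of other fates, HAND1, SOX17, GATA6 and PAX6 did not pass the filter on low values, MIXL1 reached at most 4.86 TPM, SOX1 at most 4.24 TPM and TBXT at most 1.89 TPM. Fewer cells of such a fate and less RNA per cell cannot be told apart in these extracts.

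By class, SNE gave more of its total to long noncoding and mitochondrial RNA and less to protein-coding genes. Protein-coding genes encoded in the nucleus took 57.7% and 57.8% of summed TPM in SNE, against 83.3% and 83.4% in CE. Long noncoding RNA genes took 11.4% and 11.5% in SNE, against 4.62% and 4.76% in CE. The mitochondrial genome took 22.6% and 22.1% in SNE and 1.61% and 1.46% in CE, while ME held 61.4% and 59.6% and INPUT 20.7% and 20.3%. With mitochondrial genes taken out of the total, long noncoding RNA still took 14.7% in each SNE library, against 4.70% and 4.83% in CE. Pseudogenes took a smaller summed share, with 4.76% and 4.87% in SNE and 7.56% in each CE library. Gene by gene 818 of 1839 pseudogenes were higher (44.5%) and 335 lower (18.2%) as deposited, with a median of 1.08. This excess of higher pseudogenes depended on the scaling. With a common median 422 were higher and 437 lower, and stably 361 were higher and 306 lower. Reads of a pseudogene cannot be told apart with certainty from those of its parent gene.

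The genomic span of a gene ordered the difference more than any other length. Across 13549 protein-coding genes Spearman's rho with the log2 difference was 0.69 for genomic span, 0.43 for exon length, 0.41 for the number of exons and 0.38 for protein length. The span is also the length by which the authors divided, and genes share libraries and depth, so these are descriptions across genes. Genes of up to 2 kb had a median log2 difference of -2.12 (296 genes), and 65.5% of them were lower in SNE and 10.5% higher. In genes of 20 to 50 kb the median was 0.52 (3523 genes). Above 500 kb it was 2.39 (245 genes), with 234 higher and 0 lower by limma. Stable differences followed the same order, with 178 of the 296 shortest genes lower and 177 of the 245 longest higher.

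The order remained among genes of similar exon length. Among protein-coding genes with 2 to 4 kb of exons, the median rose with span over 4 classes: -0.997 up to 10 kb, 0.18 at 10 to 50 kb, 1.24 at 50 to 200 kb and 2.18 above 200 kb. Genes with exons over 8 kb had medians of 0.56, 1.27 and 2.06 in the last 3 of these classes. Genes of 1 exon had a median of -1.11 (556 genes), and genes of over 40 exons 1.502 (254 genes). In the highest of 4 classes by mean TPM the medians ran from -1.65 at up to 10 kb to 2.47 above 200 kb, and in the lowest class from -0.22 to 1.56. Long noncoding RNA genes started higher, at 0.49 for spans up to 2 kb (1303 genes), and reached 2.27 above 500 kb (27 genes). Their rho with span was 0.37 (3782 genes). In the polyA libraries, which were counted over exons alone, rho with span was 0.16 (12286 genes), with medians of -0.18 for the shortest and 0.54 for the longest protein-coding genes. The highest, 0.57, was that of genes of 100 to 200 kb. At similar exon length the polyA medians did not rise with span in this way. With up to 2 kb of exons they were -0.44, -0.63 and -0.90 in the first 3 span classes. With 2 to 4 kb they were 0.13, -0.09, -0.13 and -0.21 over the 4 classes. With 4 to 8 kb they were 0.58, 0.41, 0.36 and 0.23. With exons over 8 kb they were 0.80, 0.81 and 0.72 in the last 3 classes.

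**Figure D2:**
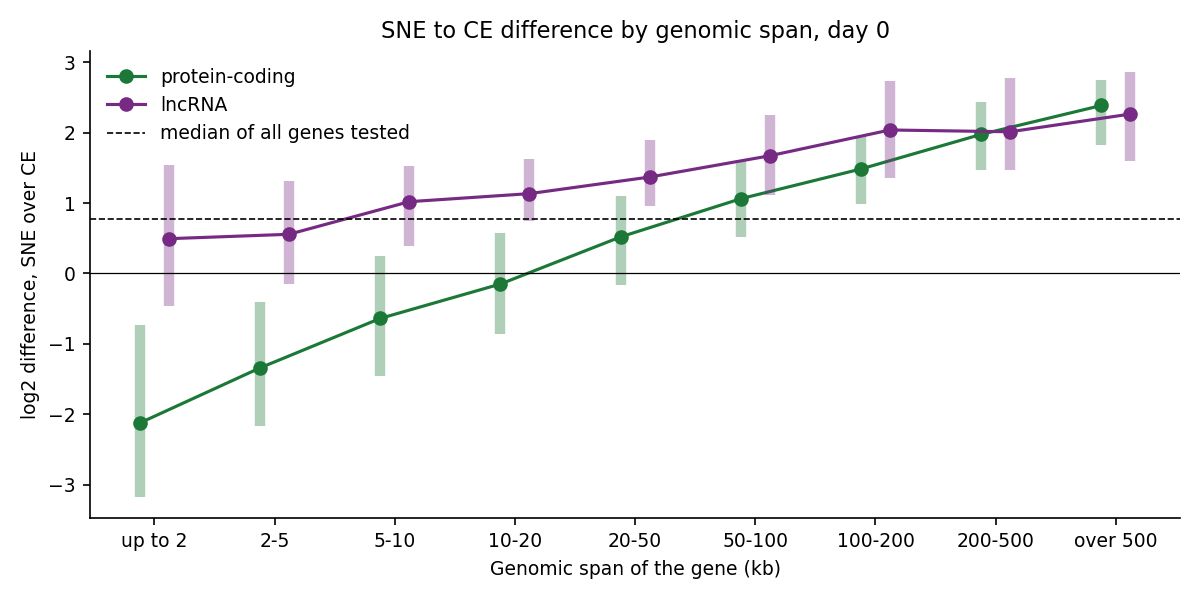
Median log2 difference of SNE over CE (y axis) by genomic span in kb (x axis), for protein-coding and long noncoding RNA genes, with bars from the first to the third quartile and a dashed line at the median of all genes tested. Protein-coding genes run from -2.12 to 2.39, and long noncoding RNA genes from 0.49 to 2.27.

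Among the 10 protein-coding genes of largest positive difference, 5 were mitochondrial and 5 were nuclear genes of 275 kb or more. KCTD8, a subunit of GABA-B receptors with a span of 275 kb, had 51.6 and 58.0 TPM in SNE, against 2.38 and 2.71 TPM in CE. KCND2, a voltage-gated potassium channel of 477 kb, had 105 and 117 TPM in SNE and 6.15 and 6.51 TPM in CE. KCNT2, a sodium-activated potassium channel, had 74.2 and 79.3 TPM in SNE and 4.44 and 4.42 TPM in CE. IMMP2L, a peptidase of the inner mitochondrial membrane, spans 899 kb, and had 36.4 and 41.0 TPM in SNE and 1.81 and 1.91 TPM in CE. These log2 differences lay between 3.79 and 3.98 and were stable. In the polyA libraries, where only exons count, the difference of nucleus over cytoplasm was 0.33 for KCTD8, 0.27 for KCND2 and 0.16 for IMMP2L, and KCNT2 stood at 1.79.

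At the other end stood genes of 8 kb or less. LAGE3, a subunit of the KEOPS tRNA-modifying complex with a span of 1.49 kb, had 8.06 and 2.15 TPM in SNE and 192 and 207 TPM in CE. IFITM3, an antiviral membrane protein, had 9.49 and 6.93 TPM in SNE, against 218 and 225 TPM in CE, and its paralog IFITM2 was lower as well, at -4.47, with reads that the near-identical copies may share. MT2A, a metal-binding metallothionein, had 4.11 and 1.24 TPM in SNE and 73.7 and 82.4 TPM in CE. These 4 genes were lower under all 6 scalings. Few reads lie behind some SNE values, with 9 and 2 reads for LAGE3 and 4 and 1 for MT2A, against 326 and 408 and 109 and 142 reads in CE.

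Nuclear long noncoding RNAs were higher in SNE as a group. Of 12 tested, 11 were higher and 0 lower by limma, 8 of them stably, with a median of 2.52 beside 0.77 over all genes. The list had a median span of 109 kb. Long noncoding RNA genes of 100 to 200 kb had a median of 2.04 (177 genes), with 92.7% higher, so genes of like span lay close to the list. JPX, a transcript of the X-inactivation centre, had 142 and 145 TPM in SNE, against 14.4 and 14.6 TPM in CE. FTX, from the same region, had 173 and 181 TPM in SNE and 17.7 and 17.9 TPM in CE. KCNQ1OT1, the imprinted antisense RNA that silences its neighbours in cis, had 104 and 109.5 TPM in SNE and 13.1 and 13.3 TPM in CE. MIR17HG, the primary transcript of the miR-17-92 cluster, had 339 and 327 TPM in SNE and 43.9 and 43.7 TPM in CE. TUG1 was the member not called, at 0.49 (and -0.75 with equal counted reads), with 534 and 535 TPM in SNE and 376 and 386 TPM in CE.

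Over all long noncoding RNA genes 1838 of 3782 were higher in SNE (48.6%) and 176 lower (4.65%). XACT (chrX:113616300-114059289, minus strand, GRCh38), an RNA that coats active X chromosomes in human pluripotent cells, was among the most different, with 220 and 246 TPM in SNE and 12.2 and 12.9 TPM in CE. LINC01876, an intergenic RNA of chromosome 2, had 124 and 134 TPM in SNE and 6.69 and 7.17 TPM in CE. The log2 differences were 4.11 ± 0.07 for XACT and 4.04 ± 0.06 for LINC01876. Among the lower ones, HEIH had 6.46 and 3.88 TPM in SNE, against 54.3 and 53.8 TPM in CE. Some others among the leading 10 in each direction rested on fewer than 20 reads, such as AC007485.1 with 7 and 3 reads in SNE and 0 in both CE libraries, and no fold is given for it.

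Long noncoding RNAs of embryonic stem cells were more often higher in SNE than lower as deposited. Of 13 tested, 8 were higher (3 stably) and 1 lower (stably), with a median of 1.34. Over all genes 40.4% were higher and 13.1% lower. With equal counted reads 3 members were higher and 2 lower, with a median of 0.12. LNCPRESS2, a p53-regulated transcript of pluripotent cells, had 1934 and 2073 TPM in SNE and 385 and 401 TPM in CE. LINC01108 had 1291 and 1324 TPM in SNE, against 239 and 245 TPM in CE. ESRG, the most abundant of the list, was present at 5978 and 6001 TPM in SNE and 4002 and 4055 TPM in CE and was not called, and its sign turned to -0.67 with equal counted reads. MIR302CHG, the host of the miR-302 cluster, had 1632 and 1625 TPM in SNE, against 624 and 666 TPM in CE. LINC00545 was the one lower member, at 25.2 and 39.9 TPM in SNE and 154 and 178 TPM in CE.

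Transcripts listed as cytoplasmic long noncoding RNAs did not move together: 3 of 8 were higher and 2 lower, with a median of 0.37 that turned negative, to -0.86, with equal counted reads. The shares over all genes were 40.4% higher and 13.1% lower. NORAD, which sequesters Pumilio proteins in the cytoplasm, had 372 and 350 TPM in SNE and 1417 and 1428 TPM in CE. TMEM161B-AS1 had 37.4 and 39.4 TPM in SNE, against 3.85 and 4.33 TPM in CE, and was stably higher, over a span of 168 kb. BCYRN1, which in neurons represses translation, rested on 0 reads in both SNE libraries and on 8 and 6 reads in CE.

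Ribosomal protein mRNAs and the noncoding hosts of snoRNAs share a type of transcription start and were set side by side for that reason. The terminal oligopyrimidine (TOP) start, a C followed by pyrimidines, ties an mRNA's translation to growth signals, and genes of both kinds are known for it. Read from the RefSeq promoter table (GRCh38.p14), a start of C and at least 4 more pyrimidines was found in 41 of 63 ribosomal protein genes (65.1%), 11 of 26 translation factors (42.3%), 5 of 16 noncoding snoRNA hosts (31.2%) and 7 of 19 coding ones (36.8%), against 1429 of 35116 promoters (4.07%). The first 20 bases of 7 such genes are given below, the pyrimidine run in capitals, to show that similar starts occur in genes lower in SNE (RPS3A, RPL29, EEF2) and in genes higher there as deposited (ZFAS1, TAF1D, RABGGTB and SNHG5, whose sign depended on scaling).
RPS3A: CCCTTTTggctctctgacca
RPL29: CTCTTCCggttctaggcgct
EEF2: CTCTTCCgccgtcgtcgccg
ZFAS1: CTTTCgcgtctgcggtgccc
SNHG5: CTTTTacgtcggccttcgcg
TAF1D: CCTTTTCTTCCgcacggttg
RABGGTB: CCTTTCCCTgttagacatgg

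Cytosolic ribosomal protein genes were mostly lower in SNE. Of 79 tested, 64 were lower (41 stably) and 2 higher (0 stably), with a median of -1.83. Over all genes 13.1% were lower (10.0% stably). Protein-coding genes of up to 10 kb in the highest of 4 classes by mean TPM had a median of -1.65, with 68.3% lower (1063 genes). RPL29, a large-subunit protein, had 203 and 219.8 TPM in SNE, against 2305 and 2221 TPM in CE. RPS15, a small-subunit protein, had 139 and 152 TPM in SNE and 1810 and 1721 TPM in CE. RPS3A stood at 354 and 357 TPM in SNE and at 1896 and 1813 TPM in CE. The exceptions were RPL39L, a paralog used in germ cells, at 198 and 199.6 TPM in SNE and 60.1 and 64.0 TPM in CE, and RPS9, at 4.72 and 5.25 TPM in SNE and 1.93 and 1.75 TPM in CE. Their annotated spans are 59.96 kb and 48.3 kb, against a list median of 5.69 kb. In CE, RPS9 lay far below RPS15 and RPS3A, and how much of its mRNA entered the count was not tested. Ribosomal protein genes with the TOP-like start had a median of -1.70.

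Translation factors followed: 16 of 34 were lower (10 stably) and 3 higher (EIF3H, EIF3E and EIF4E, none of them stably), with a median of -0.88. The shares over all genes were 13.1% lower (10.0% stably) and 40.4% higher. EEF2, the translocation factor, had 574 and 588 TPM in SNE, against 3986 and 3830 TPM in CE. EEF1B2, which reloads EEF1A1 with GTP, had 101 and 117 TPM in SNE and 926 and 919.6 TPM in CE. EIF3I, a small subunit of initiation factor 3, had 26.04 and 20.4 TPM in SNE and 258 and 252 TPM in CE. Its partner EIF3H, which spans 125 kb, had 77.8 and 84.8 TPM in SNE and 28.7 and 28.5 TPM in CE.

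Noncoding snoRNA hosts are spliced RNAs whose introns give snoRNAs, and many of them are decayed in the cytoplasm by nonsense-mediated decay. Of 19 tested, 7 were higher (0 stably) and 2 lower (2 stably), with a median of 0.50 that became -0.74 with equal counted reads. Over all genes 40.4% were higher (12.3% stably) and 13.1% lower (10.0% stably), so the list was not more often higher than all genes. GAS5 had 2285 and 2284 TPM in SNE, against 546 and 562 TPM in CE. SNHG1 had 1765 and 1778 TPM in SNE and 377 and 413 TPM in CE. ZFAS1 had 695 and 704 TPM in SNE and 143 and 152 TPM in CE. Their log2 differences were 2.04 for GAS5, 2.16 for SNHG1 and 2.23 for ZFAS1, and with equal counted reads 0.80, 0.92 and 0.995, under the threshold. SNHG5 had 192 and 189 TPM in SNE and 90.9 and 95.002 TPM in CE, a difference of 1.03 that turned, to -0.21, with equal counted reads. SNHG16 was stably lower, with 105 and 108 TPM in SNE and 764 and 737 TPM in CE. Hosts with the TOP-like start had a median of 1.03.

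Coding snoRNA hosts lay on both sides: 7 of 21 were higher (1 stably) and 6 lower (3 stably), with a median of 0.27. The shares over all genes were 40.4% higher (12.3% stably) and 13.1% lower (10.0% stably). TAF1D, a factor of RNA polymerase I, had 181 and 185 TPM in SNE, against 34.5 and 34.4 TPM in CE, and was stably higher. RABGGTB, a Rab prenyltransferase subunit, had 596 and 579 TPM in SNE and 128 and 136 TPM in CE. EEF2 and EEF1B2, described above, are also coding hosts.

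Replication-dependent histone mRNAs, which lack introns and whose 3′ end is a stem-loop and not a polyA tail, were the group lowest in SNE. Of 59 tested, 56 were lower (53 stably) and 0 higher by limma, with a median of -3.17. Over all genes 13.1% were lower (10.0% stably), and protein-coding genes of up to 2 kb had a median of -2.12, with 65.5% lower. The 16-base stem-loop was found in annotated transcripts of 21 of the 59 genes (GENCODE 29, GRCh38), of which 19 were lower, and 37 of the 38 genes without it in their annotation were lower too. The stem-loops of 4 genes, with the 4 loop bases in capitals, show the forms met.
H2AC19: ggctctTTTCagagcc
H4C2: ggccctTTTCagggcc
H2AC11: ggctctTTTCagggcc
H4-16: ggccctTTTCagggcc

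H2AC19 had 14.2 TPM in each SNE library, against 471 and 454 TPM in CE, the largest difference of the list at -4.93. H4C1 had 38.5 and 46.3 TPM in SNE and 1332 and 1271 TPM in CE. H1-2, a linker histone and the most abundant member, had 872 and 859.6 TPM in SNE, against 8367 and 7757 TPM in CE. H4-16, a histone H4 gene on chromosome 12 that carries the same stem-loop as H4C2, differed least among those with it, at 339.6 and 329.8 TPM in SNE and 569.7 and 575 TPM in CE, a difference of -0.77 that was not called and was 0.14 after quantile normalisation. It lies apart from the histone clusters and was chosen after its values were seen. Histone genes of one class are near-identical in coding sequence, so reads may be split among copies.

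**Figure D3:**
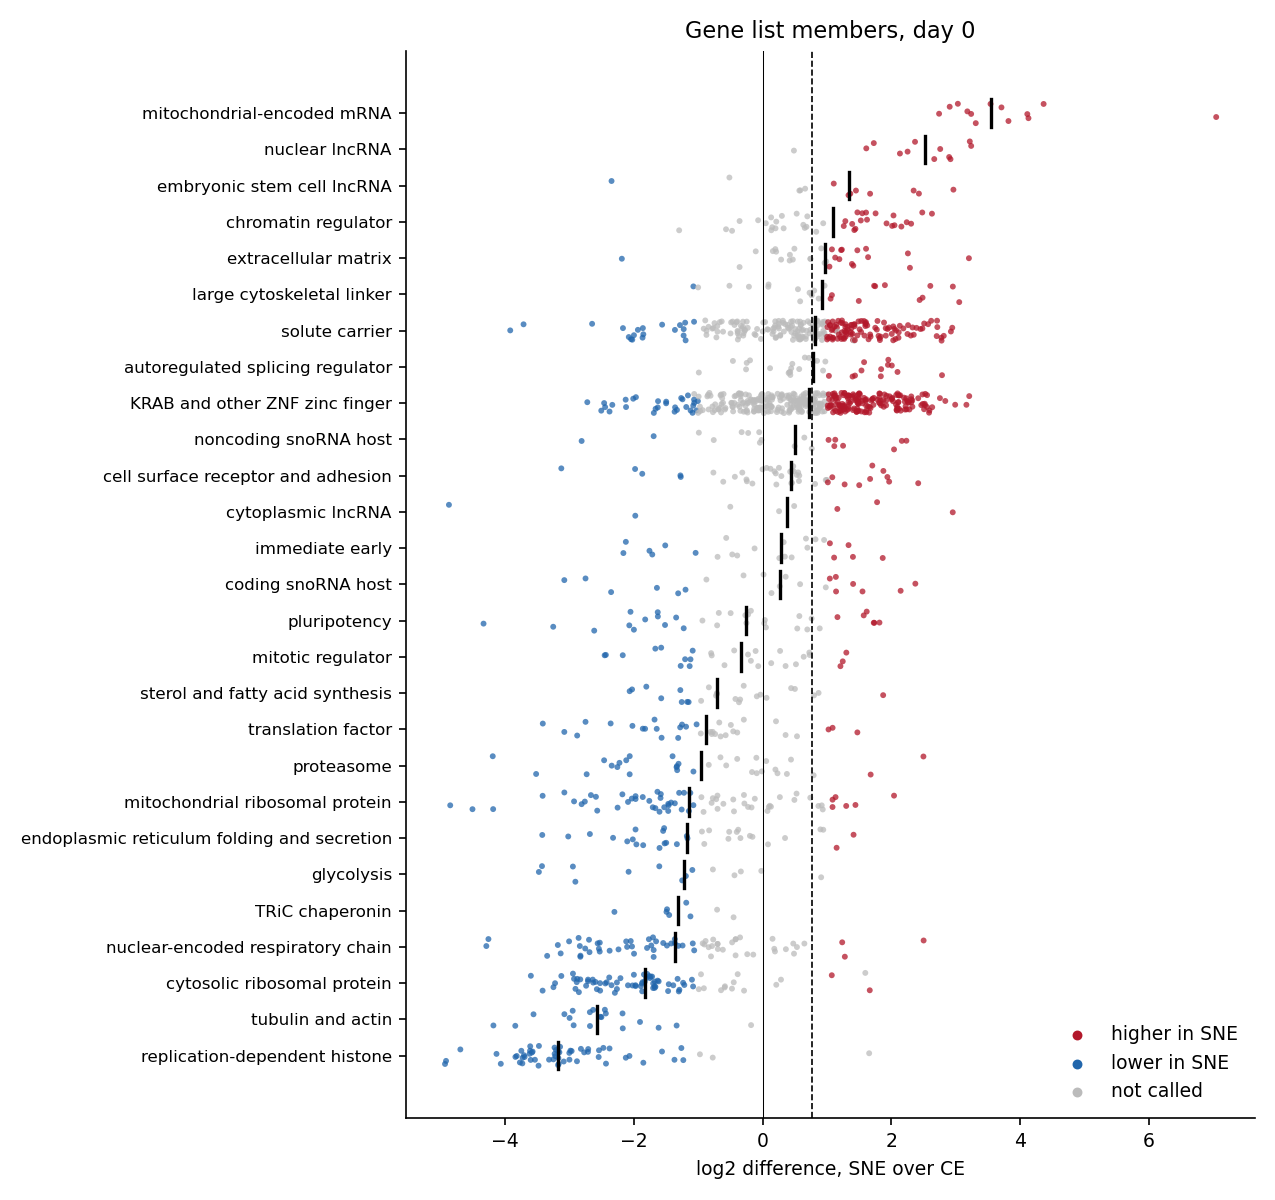
Log2 difference of SNE over CE (x axis) of the members of 27 gene lists, 1 point per gene, red where higher, blue where lower and grey where not called, with a tick at the list median and a dashed line at the median of all genes. Mitochondrial-encoded mRNAs and nuclear long noncoding RNAs lie farthest right, and histone, tubulin and actin, and ribosomal protein genes farthest left.

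Cytoskeletal subunits formed the second lowest list. Of 20 tubulin and actin genes 19 were lower (17 stably), with a median of -2.57, beside 13.1% lower (10.0% stably) over all genes. TUBA1B, an alpha-tubulin, had 216 and 213 TPM in SNE, against 3959 and 3845 TPM in CE. TMSB10, a thymosin that binds actin monomers, had 169 and 144 TPM in SNE and 2296 and 2184 TPM in CE. TUBB4B, a beta-tubulin, had 113 and 116 TPM in SNE and 1347 and 1362 TPM in CE.

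Enzymes and machines of the cytosol were also more often lower than all genes, of which 13.1% were lower (10.0% stably) and 40.4% higher. Glycolysis genes were lower in 9 of 14 (6 stably), with a median of -1.22, among them LDHA, lactate dehydrogenase, at 28.97 and 27.7 TPM in SNE and 325 and 324 TPM in CE. PGAM1, phosphoglycerate mutase, had 67.2 and 74.0 TPM in SNE and 766 and 768 TPM in CE. The TRiC chaperonin, which folds tubulin and actin, had 6 of 8 subunits lower (3 stably), with CCT7 at 54.4 and 49.8 TPM in SNE and 258 and 262.5 TPM in CE. Proteasome genes were lower in 16 of 32 (12 stably) and higher in 2 (PSMD14 and, stably, PSMA1), with a median of -0.95. PSMB3, a core subunit, had 5.92 and 5.58 TPM in SNE and 121 and 123 TPM in CE. PSMA1, whose annotated span is 139 kb, had 10.0 and 10.3 TPM in SNE and 0.92 and 1.03 TPM in CE. Its CE level was far below that of PSMB3, and how much of its mRNA entered the count was not tested.

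Genes for mitochondrial proteins that are made in the cytosol differed from the mitochondrial genome itself. For comparison, 13.1% of all genes were lower (10.0% stably) and 40.4% higher (12.3% stably). Mitochondrial ribosomal protein genes were lower in 37 of 69 (32 stably) and higher in 6 (0 stably), with a median of -1.14. MRPL41 had 9.83 and 7.09 TPM in SNE, against 259 and 279 TPM in CE. Nuclear-encoded respiratory chain genes were lower in 40 of 69 (36 stably) and higher in 3 (1 stably), with a median of -1.36. NDUFB11, of complex I, had 13.4 and 18.5 TPM in SNE and 312 and 341 TPM in CE. UQCR10, of complex III, had 10.9 and 11.6 TPM in SNE and 235 and 232 TPM in CE. NDUFS4, another complex I subunit but with a span of 123 kb, had 36.3 and 38.2 TPM in SNE and 5.38 and 6.15 TPM in CE.

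Among genes of the secretory pathway, those of its machinery were more often lower than the 13.1% of all genes, and matrix genes lay close to all genes. Endoplasmic reticulum folding and secretion genes were lower in 17 of 33 (13 stably) and higher in 2 (0 stably), with a median of -1.16. SDF2L1, a lumenal chaperone, had 11.1 and 12.6 TPM in SNE, against 102 and 104 TPM in CE, and KDELR1, the retrieval receptor, had 43.9 and 40.2 TPM in SNE and 272 and 277 TPM in CE. Sterol and fatty acid synthesis genes were lower in 8 of 25 (4 stably) and higher in 1 (ELOVL6, a fatty acid elongase), with SCD, a fatty acid desaturase, at 322 and 307 TPM in SNE and 1301 and 1333 TPM in CE. Matrix genes were higher in 14 of 30 (3 stably) and lower in 1 (stably), beside 40.4% higher and 12.3% stably higher over all genes. Their median of 0.98 became -0.13 with equal counted reads. COL4A5, a basement membrane collagen chain of 258 kb, had 53.2 and 55.9 TPM in SNE and 4.95 and 5.09 TPM in CE. SPARC, a small matrix glycoprotein, was the lower one, with 22.6 and 24.6 TPM in SNE and 109 and 112 TPM in CE.

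Surface and transporter lists held called genes on both sides, as did all genes, of which 40.4% were higher and 13.1% lower. Stably, 12.3% of all genes were higher and 10.0% lower. Receptor and adhesion genes were higher in 10 of 43 (1 stably) and lower in 5 (3 stably), with a median of 0.45, or -0.77 with equal counted reads. CD46, a complement regulator, had 309 and 318 TPM in SNE, against 56.3 and 59.5 TPM in CE, and BSG, a partner of lactate transporters, had 66.8 and 63.8 TPM in SNE and 581 and 573 TPM in CE. Solute carriers were higher in 105 of 253 (24 stably) and lower in 20 (15 stably), with a median of 0.81, close to that of all genes. SLC25A5, the mitochondrial ATP carrier, was the lowest, at 86.8 and 80.2 TPM in SNE and 1269 and 1279 TPM in CE. Short proteins with a hydrophobic stretch, found as any 19-residue window with a mean hydropathy of at least 1.6, were less low than those without. For proteins up to 200 residues the median was -0.13 with a stretch (420 genes) and -0.85 without (1167 genes), and above 800 residues it was 1.23 and 1.13.

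Lists of genes for nuclear proteins lay close to all genes, of which 40.4% were higher in SNE and 12.3% stably higher, with a median of 0.77. Splicing regulators that control their own splicing were higher in 12 of 31 (1 stably) and lower in 0 by limma, with a median of 0.79, or -0.44 with equal counted reads. NKTR, a cyclophilin with an arginine-serine domain, was the stable one, at 409 and 424 TPM in SNE and 58.7 and 60.1 TPM in CE. Chromatin regulators were higher in 20 of 40 (4 stably) and lower in 0, with a median of 1.10, or -0.12 with equal counted reads. EZH2, the methyltransferase of Polycomb repressive complex 2, had 117 and 119 TPM in SNE, against 17.9 and 18.6 TPM in CE. KDM6A, the demethylase that removes the same mark, had 86.0 and 89.0 TPM in SNE and 14.7 and 15.0 TPM in CE. Zinc finger genes were higher in 163 of 405 (35 stably) and lower in 30 (19 stably), with a median of 0.73.

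Pluripotency genes, with POU5F1, NANOG and LIN28A among them, were lower in 12 of 34 (10 stably) and higher in 6 (0 stably), with a median of -0.26. Over all genes, for this and the next 2 lists, 13.1% were lower (10.0% stably) and 40.4% higher (12.3% stably). UTF1, a chromatin factor of 1.28 kb, had 13.5 and 12.5 TPM in SNE, against 281 and 279.8 TPM in CE. TERF1, which binds telomeres, had 1066 and 1071 TPM in SNE and 322 and 318 TPM in CE. Mitotic regulators were lower in 10 of 28 (5 stably) and higher in 3 (0 stably), with a median of -0.33. BIRC5, survivin, had 24.8 and 28.9 TPM in SNE and 147 and 150 TPM in CE. Immediate early genes were lower in 6 of 24 (5 stably) and higher in 5 (0 stably), with JUND, an AP-1 subunit, at 93.0 and 74.1 TPM in SNE and 301 and 266 TPM in CE.

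Large cytoskeletal linkers, giant proteins that join filaments to membranes and organelles, were higher in 11 of 24 (5 stably) and lower in 1 (0 stably) on day 0, near the 40.4% higher over all genes. Their median was 0.92 beside 0.77, or -0.26 with equal counted reads. DST, a giant linker of 497 kb, had 109 and 111 TPM in SNE, against 11.97 and 12.8 TPM in CE. CEP290, of the ciliary base, had 45.3 and 47.96 TPM in SNE and 4.86 and 5.43 TPM in CE. NES, nestin, was the lower one, at 211 and 189 TPM in SNE and 415 and 428 TPM in CE.

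Mitochondrial mRNAs were higher in SNE than in CE, and in deposited TPM those of the 2 strands stood on different sides of ME. Mitochondrial DNA is transcribed from both strands into long precursors: the heavy-strand one carries most mRNAs and the light-strand one carries MT-ND6 and a set of tRNAs. All 13 mRNAs were higher in SNE than in CE under every scaling that keeps mitochondrial genes, which 2 of the 6 remove. The 12 heavy-strand mRNAs had a median log2 difference of 3.43, and all 12 were lower in SNE than in ME, with a median ratio of SNE to ME of 0.297. MT-ND1, of complex I, had 17571 and 17208 TPM in SNE, 51839 and 51684 TPM in ME, and 1056 and 956 TPM in CE. MT-ND5 had the largest difference among them, 4.37 ± 0.07, at 12049 and 11584 TPM in SNE and 604 and 542 TPM in CE.

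MT-ND6, on the light strand, had 21526 and 20700 TPM in SNE, 16105 and 15257 TPM in ME, and 169 and 149 TPM in CE. Its log2 difference of SNE over CE was 7.04 ± 0.08, and its mean in SNE was 1.35 times that in ME, the one mRNA above ME. The 8 light-strand tRNA genes summed to 20701 and 19942 TPM in SNE, 11958 and 14490 TPM in ME, and 143 and 66.3 TPM in CE. All 8 were called higher in SNE than in CE by limma, MT-TC among them on too few reads for a fold, and 6 lay above ME. MT-TP had 9256 and 8918 TPM in SNE, 7701 and 8751 TPM in ME, and 77.5 and 55.4 TPM in CE. MT-TS1 rested on 138 and 110 reads in SNE and 0 in both CE libraries, at least 73.6-fold higher against a floor of 3 reads per library. Of 12 heavy-strand tRNA genes tested, 10 were called higher than in CE, but against ME they were divided, with 4 above and 4 below and a median ratio of SNE to ME of 1.006. MT-TD reached 5.59 times ME and MT-TW 3.72 times, so tRNA genes above ME were found on both strands. Several tRNA genes had 0 reads in both CE libraries, such as MT-TC with 2 and 1 reads in SNE, and no fitted log2 difference is given for them. The mitochondrial rRNA genes were low, with 14.5 and 8.23 TPM for MT-RNR2 in SNE and 0.564 and 2.90 TPM in CE. The part of membranes carried over into SNE in these values was not tested.

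**Figure D4:**
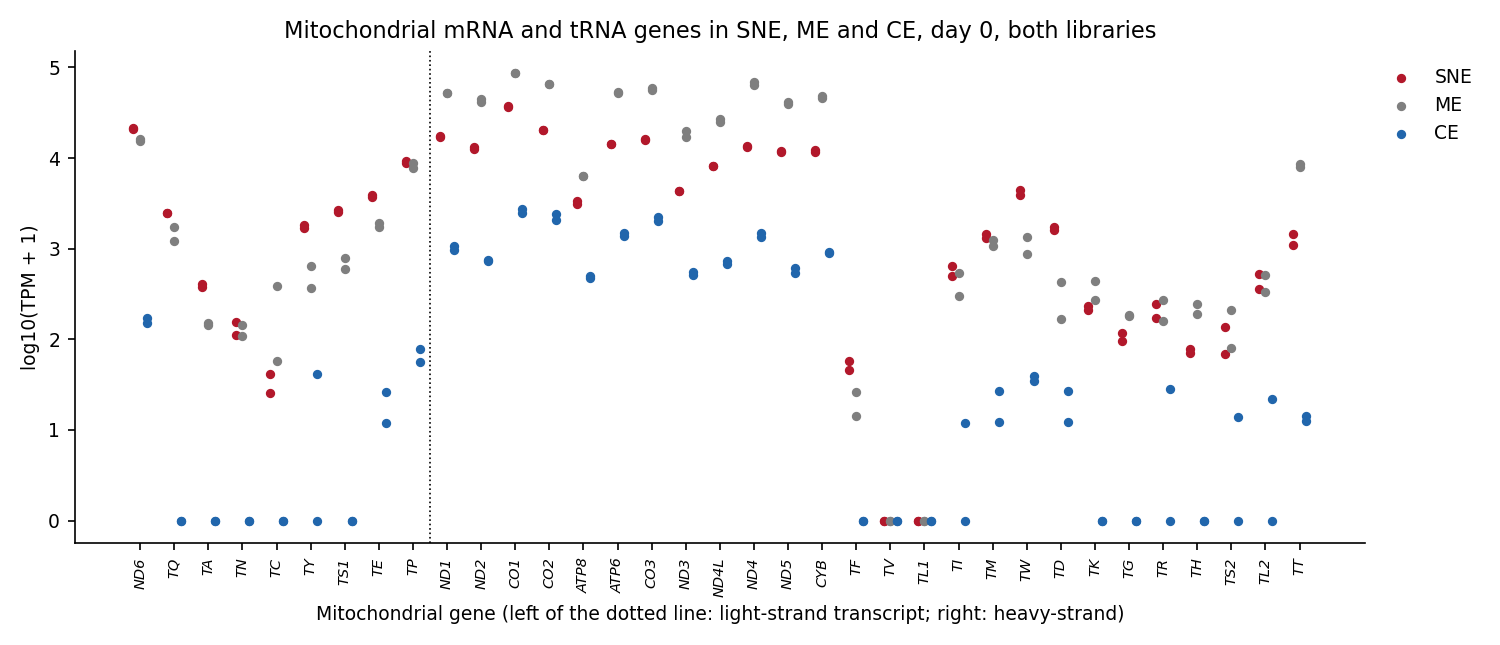
Log10(TPM + 1) of the mitochondrial mRNA and tRNA genes (x axis) in both libraries of SNE (red), ME (grey) and CE (blue), light-strand transcripts left of the dotted line. In deposited TPM, MT-ND6 lies above ME in SNE, while the 12 heavy-strand mRNAs lie below ME and above CE.

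Small RNA genes were partly measured, since the libraries hold their precursors and most reads in host genes were not assigned. Of 131 miRNA hairpin genes tested, 44 were higher in SNE (33.6%, below the 40.4% of all genes; 23 stably) and 4 lower (4 stably). Of these, 14 of the 44 and 2 of the 4 had at least 20 reads over the 2 libraries of the higher extract. Those on chromosome 19 include the MIR371 to MIR373 cluster and the large primate cluster next to it, both active in human pluripotent cells. MIR373 had 676 and 698 TPM in SNE, against 140.1 and 131 TPM in CE, from 35 and 30 reads in SNE and 11 and 12 in CE. MIR372 had 557 and 527 TPM in SNE and 91.8 and 124 TPM in CE. MIR371A had 418 and 551 TPM in SNE and 144 and 179.99 TPM in CE. MIR373 and MIR372 were stably higher. Mature sequences from RefSeq (GRCh38.p14), with the seed in capitals, are shown because all of them except miR-371a-3p have the seed of the miR-302 family, whose host MIR302CHG is described above.
hsa-miR-371a-3p: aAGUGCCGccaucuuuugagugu
hsa-miR-372-3p: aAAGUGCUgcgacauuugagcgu
hsa-miR-373-3p: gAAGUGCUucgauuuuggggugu
hsa-miR-520a-3p: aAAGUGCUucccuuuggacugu
hsa-miR-520e-3p: aAAGUGCUuccuuuuugaggg
hsa-miR-302a-3p: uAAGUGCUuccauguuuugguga

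The values are reads over the hairpin gene and say nothing of the mature arm. MIR520E, of the large cluster, had 199 and 203 TPM in SNE and 60.6 and 34.7 TPM in CE, and MIR520A rested on 5 and 2 reads in SNE and 1 in each CE library. Pseudogene copies of U6 snRNA, the catalytic RNA of the spliceosome, were higher in 26 of 52 and lower in 0 by limma. Over all genes 40.4% were higher and 13.1% lower, and only 3 of the 26 had at least 20 reads. The 3 U6 genes tested that are not named as pseudogenes had more reads in CE, all on few reads: RNU6-9 was called lower on 0 reads in SNE and 1 in each CE library. RNU6-2, with 2 and 0 reads in SNE and 13 and 8 in CE, was not called, nor was RNU6-8, with 1 and 2 reads in SNE and 4 and 5 in CE. RNU6-1246P was the deepest, with 46 and 64 reads in SNE and 5 and 3 in CE. Variant U1 genes were in part lower: 5 of 11 were lower (3 stably) and 0 higher, beside 13.1% lower and 40.4% higher over all genes. RNVU1-29 had 32.5 and 29.3 TPM in SNE and 182 and 152 TPM in CE. RN7SL3, a copy of the signal recognition particle RNA, had 3207 and 3187 TPM in SNE, against 9253 and 8823 TPM in CE. All these families have many near-identical copies, among which reads may be split.

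On days 3 and 5 the difference of SNE over CE was compared with that of day 0 by limma, with day 0 in both comparisons. The difference is signed: it is called more positive where it moved towards SNE and more negative where it moved towards CE, whatever the size of the gap between extracts. Of 22445 genes tested, it was more positive on day 3 than on day 0 for 1197 (5.33%) and more negative for 574 (2.56%), and on day 5 it was more positive for 2025 (9.02%) and more negative for 644 (2.87%). The splits depended on scaling: with a common median they were 670 (2.99%) and 1070 (4.77%) on day 3, and 723 (3.22%) and 1729 (7.7%) on day 5. Under all 4 scalings run for this test, and among the 19748 genes of day 0, the counts were 551 more positive (2.79%) and 187 more negative (0.947%) on day 3, and 382 more positive (1.93%) and 300 more negative (1.52%) on day 5. The calls that follow held under all 4.

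Of the gene lists, large cytoskeletal linkers had the highest share of calls on day 3, with 12 of 24 more positive, and 4 on day 5 (NES, TLN1, FLNC and DYNC1H1). Their median difference of SNE over CE ran 0.92, 2.20 and 1.81 over days 0, 3 and 5, beside 0.77, 0.72 and 0.79 over all genes. NES had 1496 and 1490.4 TPM in SNE and 527 and 605 TPM in CE on day 3, against 211 and 189 TPM in SNE and 415 and 428 TPM in CE on day 0. FLNA, filamin A, had 2269.8 and 2224 TPM in SNE and 884 and 947 TPM in CE on day 3, against 681 and 639 TPM in SNE and 943 and 939 TPM in CE on day 0. The difference was more positive on day 3 than on day 0 by 2.47 ± 0.13 for NES (adjusted p = 5.43e-05) and by 1.81 ± 0.11 for FLNA (adjusted p = 6.4e-05). FLNA was not called on day 0, and its day 0 difference of -0.51 was 0.55 after quantile normalisation. Matrix genes were more positive in 8 of 30 on day 3 (0 on day 5) and receptors in 8 of 43, among them NOTCH1, NOTCH2 and NOTCH3 (CD59 alone on day 5).

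The nuclear long noncoding RNA median stood at 2.52 at the start, 3.26 after 3 days and 3.48 after 5. The difference of NEAT1 was more positive on day 3, and those of NEAT1, FTX and PVT1 on day 5, of 12 members. NEAT1 had 2449 and 2858 TPM in SNE and 108 and 113 TPM in CE on day 5, against 174 and 176 TPM in SNE and 32.0 and 34.2 TPM in CE on day 0. Its log2 difference was 3.93 on day 3 and 4.57 on day 5. Among noncoding snoRNA hosts the difference was more negative on day 5 for 5 of 19: GAS5, which had 882 and 898 TPM in SNE and 452 and 434 TPM in CE on day 5, and SNHG7, SNHG8, SNHG15 and SNHG19. Histone genes remained the lowest list, with medians of -3.17, -3.14 and -3.25, and 6 of 59 members more negative on each day. H4-16 was among them, at -2.37 on day 3 and -2.43 on day 5, against -0.77 on day 0. TDGF1, whose difference was more negative by 1.04 on day 5, at -1.75 against -0.70 on day 0, had 18.1 and 17.4 TPM in SNE and 59.8 and 64.2 TPM in CE on that day.

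**Figure D5:**
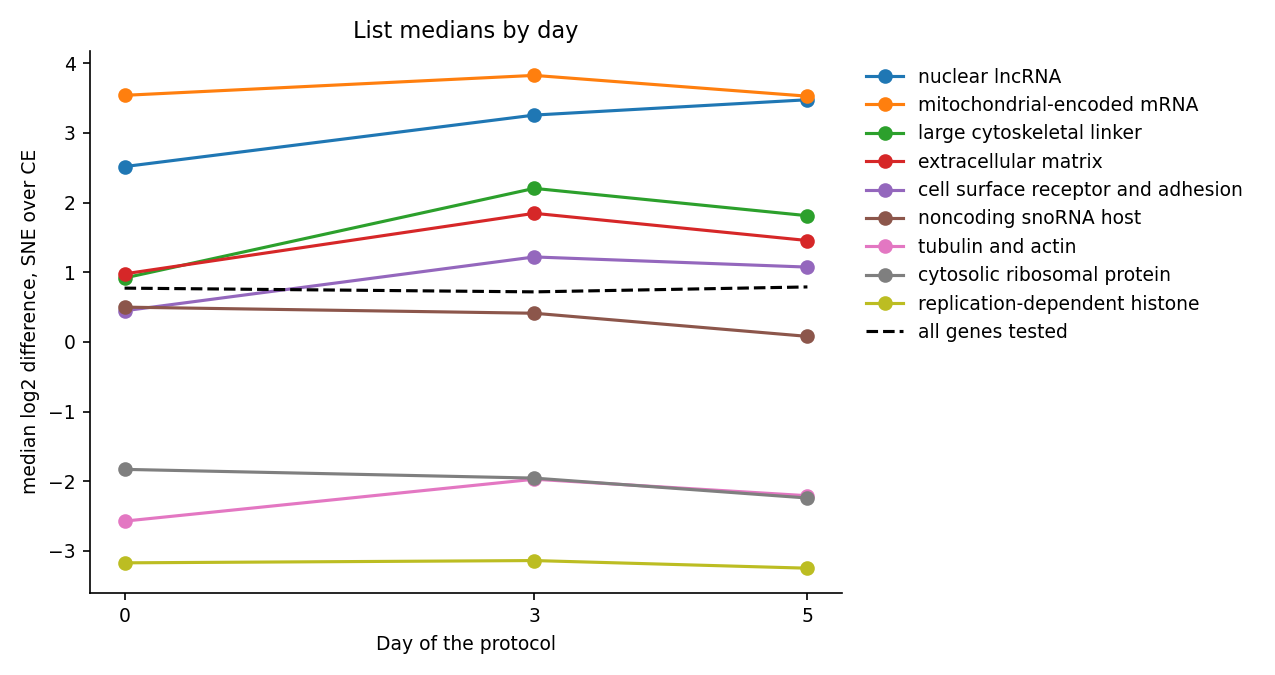
Median log2 difference of SNE over CE (y axis) of 9 gene lists on days 0, 3 and 5 (x axis, days), with the median of all genes tested dashed. Large cytoskeletal linkers run 0.92, 2.20 and 1.81, and nuclear long noncoding RNAs 2.52, 3.26 and 3.48, while all genes stay between 0.72 and 0.79.

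The polyA libraries of nucleus and cytoplasm on day 0 are separate samples from another separation, and count exons. Of 16667 genes tested there, 5005 were higher in the nucleus (30.0%) and 1037 lower (6.22%), with a median of 0.50. Over the 15200 genes tested in both tables, 28.7% were higher in the polyA nucleus and 6.45% lower, and Spearman's rho between the differences was 0.49. Of genes higher in SNE, 44.8% were also higher in the polyA nucleus, and of those higher in the polyA nucleus 61.2% were higher in SNE. For lower genes the shares were 25.6% of those lower in SNE and 56.7% of those lower in the polyA nucleus.

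Mitochondrial mRNAs took opposite sides: in polyA RNA 10 of 13 were lower in the nucleus and 0 higher, with a median of -1.38, against 13 of 13 higher in SNE. Large cytoskeletal linkers and matrix genes were higher in the polyA nucleus in 22 of 24 and 29 of 30, with medians of 2.77 and 2.15, beside 11 of 24 and 14 of 30 in SNE. FLNA stood at 2.89 in the polyA nucleus and at -0.51 in SNE. Histone genes, whose mRNAs lack a polyA tail, were lower in 4 of 45 and higher in 9 in the polyA nucleus. Ribosomal protein genes were lower in 26 of 75 there, with a median of -0.79, and nuclear long noncoding RNAs higher in 9 of 10, with a median of 2.32. MALAT1 differed by 5.30 in polyA RNA and by 2.13 in SNE over CE, and UTF1 by 0.19 and -4.33.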

How the data were processed

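The values are the authors' deposited TPM, 1 table for total RNA and 1 for polyA RNA. The submitters' processing notes name hg38, Salmon 1.3.0, featureCounts 1.6.2, HISAT2 2.0.5 and GATK, and which tool made which table is not given in the sources used here. That reads were divided by gene span (total RNA) or exon length (polyA) was worked out from the deposited TPM and GENCODE 29, which matched 57939 of the genes. Fold changes are on the log2(TPM + 1) scale, which understates those of low genes. limma 3.58.1 (R 4.3.3) was fitted to the 4 day 0 libraries with a trended robust prior and 2 residual degrees of freedom. P-values were adjusted by Benjamini-Hochberg over all genes tested. The day comparisons used the 12 SNE and CE libraries and the polyA comparison its 4. Genes were named by a rule: marker genes, the leading called members and the most abundant member of each list, and the leading genes overall. TUG1, MIR17HG, MIR302CHG, RPS3A, SNHG5, H4-16, H4C2, H2AC11, the small RNA examples, mitochondrial tRNA and rRNA genes and members named for days 3 and 5 were chosen beside that rule, after their values were seen. The gene lists, members and tests were chosen with earlier results of these data known. Scaling, pseudocount, filter, libraries in the fit and single libraries were varied. The study's summary text, protein levels and other extracts were not analysed here, other than ME and INPUT where named. Library spread is covered by the tests, but counting error at few reads is not fully covered. MIR182, for example, was called higher on 1 read in each SNE library and 0 reads in both CE libraries. Batches are not given in the sources used here.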

Additional observations from a re-analysis of the deposited data

Results flagged for a closer look

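The results listed here differed between days: the SNE over CE log2 difference of a later day, less its day 0 value, passed limma's test (adjusted p under 0.05, size at least 1) under all 4 scalings run. Day 0 enters both comparisons, so they are not independent, and no explanation was tested.

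Among large cytoskeletal linkers the change on day 3 was 2.77 ± 0.14 (SE) for DYNC1H1, the motor subunit of dynein, 2.47 ± 0.13 for NES, 2.18 ± 0.14 for TLN1, 2.08 ± 0.13 for FLNC and 1.81 ± 0.11 for FLNA. On day 5 it was 1.54 for DYNC1H1, 1.8998 for NES, 1.496 for TLN1 and 1.66 for FLNC. DYNC1H1 had 357 and 347 TPM in SNE and 43.9 and 51.9 TPM in CE on day 3, against 141 and 132 TPM in SNE and 126 and 130.4 TPM in CE on day 0. FLNC, a muscle filamin, had 1921 and 1877 TPM in SNE and 496 and 541 TPM in CE on day 3, against 10.5 and 9.99 TPM in SNE and 11.4 and 12.7 TPM in CE on day 0.

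Receptors of the Notch family changed on day 3 by 1.35 for NOTCH1, 1.77 for NOTCH2 and 1.69 for NOTCH3, and CD59, a complement inhibitor, changed on day 5 by 1.57. Among cytosolic and reticulum RNAs that were lower in SNE on day 0, the change on day 3 was 1.801 ± 0.08 for TUBA1B, 1.73 ± 0.13 for TUBB4B, 1.72 ± 0.12 for HSPA5, 1.75 ± 0.10 for NORAD and 1.496 ± 0.12 for SCD. UTF1 gave 2.27 ± 0.52 on day 5, when its SNE libraries were listed at 0 and its CE libraries at 2.51 and 3.96 TPM, so that this value depends on the pseudocount and is no measure of a change.

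Nuclear long noncoding RNAs changed by 1.57 on day 3 and 2.20 on day 5 for NEAT1, and on day 5 by 1.74 for FTX and 1.47 for PVT1. SnoRNA hosts went the other way on day 5, with -1.04 for GAS5, -1.02 for SNHG15, -1.25 for SNHG19, -1.05 for SNHG7 and -1.16 for SNHG8. H4-16 changed by -1.6003 on day 3 and -1.66 on day 5. It had 104 and 102 TPM in SNE and 571 and 506 TPM in CE on day 3.

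The remaining values are those of MIXL1, with -1.84 on day 3 and -2.17 on day 5, TBXT, with -1.68 on day 5, and TDGF1, with -1.04 on day 5. On day 0 MIXL1 reached at most 4.86 TPM and TBXT at most 1.89 TPM, close to the pseudocount of 1, so the size of their changes depends on it. RNU6-1246P changed by 2.73 on day 5, from few reads. AC007485.1 gave -3.98 on day 3 and -2.40 on day 5, but with 0 reads in both CE libraries of day 0 these values depend on the pseudocount and are no measure of a change. The same holds for RNU6-9, with 3.106 on both days, which on day 0 rested on 0 reads in SNE and 1 read in each CE library.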

How the results depend on the processing

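Beside the 7977 higher and 2595 lower genes of day 0 as deposited, the counts were 4183 and 4131 after quantile normalisation, 3223 and 5077 with a common median, 2662 and 5945 with equal counted reads and 3540 and 6447 by limma-voom on the recovered reads. With a pseudocount of 5 there were 5079 higher, and 2437 were higher under all of the 6 scalings that kept the gene. Leaving out each library in turn gave 6124 to 7979 higher and 2122 to 2729 lower. The split of higher against lower calls thus turned round between scalings. On day 3 minus day 0 a common median gave 670 more positive and 1070 more negative differences, and equal counted reads 294 more negative; on day 5 the values were 723 more positive and 1729 more negative with a common median and 873 more positive with equal counted reads. In polyA RNA a common median gave 2397 higher and 2809 lower. Without mitochondrial genes, protein-coding genes took 74.4% of summed TPM in SNE and 84.7% in CE, and long noncoding RNA genes 14.7% in SNE. The median of protein-coding genes over 500 kb minus that of genes up to 2 kb was 4.51 as deposited. It was 4.37 without mitochondrial genes, 4.38 without other structured RNA as well, 3.97 after quantile normalisation, 5.52 by voom, 5.80 and 2.86 with pseudocounts of 0.1 and 5, 3.33 without a filter on low values and 5.56 at a mean of at least 5 TPM. It ran from 4.52 to 5.00 over libraries left out. Equal counted reads, voom, and the counts under all scalings were added after the data were seen, and the cause of these shifts was not tested.

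Of 132 genes named, 19 changed sign under some alternative. With a common median, equal counted reads and voom the log2 difference became -0.16, -0.55 and -0.55 for DNMT3B, -0.29, -0.67 and -0.67 for ESRG, -0.32, -0.70 and -0.70 for L1TD1, -0.37, -0.75 and -0.75 for TUG1, -0.77, -1.14 and -1.15 for DYNC1H1, -0.38, -0.74 and -0.75 for NOTCH1, -0.41, -0.74 and -0.77 for NOTCH2, -0.67, -1.05 and -1.05 for NOTCH3, and -0.31, -0.073 and -0.22 for TBXT. With equal counted reads and voom it became -0.12 and -0.12 for EIF3E, -0.20 and -0.20 for EIF4E, and -0.21 and -0.21 for SNHG5. Quantile normalisation gave 0.55 for FLNA, 0.14 for H4-16, 0.89 for SNHG19, 0.95 for SNHG8, 0.13 for TDGF1, -0.27 for NOTCH2 and -0.22 for TBXT. Removal of mitochondrial genes, alone and with structured RNA, gave 0.32 and 0.32 for SNHG19, 0.28 and 0.28 for SNHG7, 0.29 and 0.30 for SNHG8, and 0.097 and 0.10 for FLNC. Leaving out a library gave -0.094 to 0.063 for SNHG19, -0.18 to 0.074 for SNHG7 and values up to 0.038 for SNHG8. Over all alternatives 2005 values kept their direction and call, 97 lost the call and 42 gained it.

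Deviations of same-numbered SNE and CE libraries from their group means correlated with 0.028, and with 0.028 between polyA nucleus and cytoplasm. No effect shared by same-numbered libraries was seen. With 2 libraries per group this cannot tell whether such libraries came from the same cells. With the replicate block there were 7892 higher and 2567 lower genes, and 1191 more positive and 567 more negative differences on day 3.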
